A study of Mus musculus with 3 samples.

Results

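Mouse ES cells in which Nr0b1 had been deleted and which were then maintained as an established line were compared with ES cells of the same background that still carried the gene. The comparison used the 3 arrays labelled as the Dax1 knockout and the 3 arrays labelled as Dax1-floxed, 6 of the 9 arrays of the series. Dax1 is the older name of Nr0b1. The remaining 3 arrays held cells of the floxed genotype collected 4 days after Cre recombinase was switched on, and they are given beside the results as an early time point. Every array was an Agilent one-colour mouse expression array hybridised with Cy3-labelled cRNA from total RNA.

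By the study's methods the cells descend from EB5, a derivative of the male E14tg2a ES cell line, so that a single Nr0b1 allele on the X chromosome was present. The undeleted cells, written Nr0b1 fl-/Y, carried loxP sites around exon 2 together with transgenes for MerCreMer, a Cre recombinase that enters the nucleus when 4-hydroxytamoxifen (Tx) is given, and for Egfp, and they received no Tx. The established knockout cells, written Nr0b1 KO/Y, were derived from such cells by Tx, isolated as colonies and expanded, and they share every one of those transgenes with the controls. The 4-day cells, written Nr0b1 fl-/Y+Tx, had the same genotype as the controls before Tx. All cells were grown in serum with LIF, with or without mitomycin-treated mouse embryonic fibroblast feeder cells, and neither the labels nor the methods assign a feeder condition, or one of the independently derived lines, to any array. The study calls its samples biological triplicates. Nothing in the labels ties an array to a culture, so the p-values measure the spread between these arrays.

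Nr0b1 encodes an orphan nuclear receptor that lacks the usual DNA-binding domain and acts mainly as a corepressor of other nuclear receptors, among them members of the Nr5a and Esrr groups, which bind sites holding AAGGTCA. In ES cells it belongs to the network around Oct3/4, Nanog and Esrrb. ES cell cultures also hold a small, changing subpopulation that transiently transcribes genes of the 2-cell embryo, such as Zscan4 and Tcstv genes, and occasional cells that turn toward primitive endoderm, the lineage that forms the yolk sac linings.

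Levels are given throughout as log2 signal relative to the 75th percentile of the same array, so that 0 is the signal of a fairly bright probe, and they are compared only for the same probe. A gene was called when it differed by over 2-fold with an adjusted p under 0.05 in limma. The knockout and the undeleted arrays never shared a slide: the 3 undeleted arrays lay on slide 1 and the 3 knockout arrays on slide 2, each slide being scanned in its own session, so slide and genotype cannot be told apart directly. The 4-day group had 1 array on slide 1 and 2 on slide 2. A fit with the slide as a block therefore compares the groups through those 3 arrays. Its value or adjusted p is given wherever it ended the call of a gene named in the text. Likewise, a second background correction (normexp with an offset of 50), which narrows the fold of dim genes, is given where it took a called gene named in the text under 2-fold.

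Nr0b1 itself was read by 1 probe spotted 10 times. Its level was 4.02, 4.18 and 4.10 in the undeleted cells and -6.37, -6.20 and -6.22 in the knockout, where none of the 3 arrays had it well above background. The signal was at least 357-fold lower in Nr0b1 KO/Y cells (adjusted p = 1.3e-10). After 4 days of Tx it stood at -2.58, -2.66 and -2.42, between both other groups and still above the knockout (adjusted p = 7.61e-07). Whether this probe lies within the deleted exon was not determined.

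Of 22443 genes tested, 1059 were higher in the knockout (4.72% of genes tested) and 638 were lower (2.84% of genes tested), which makes 7.56% called in either direction. Counts of called list members below stand against these shares. Large changes ran mostly upward, with 371 genes higher and 95 lower by over 4-fold. Without the limit on the fold the balance turned, with 4609 genes higher and 5921 lower at an adjusted p under 0.05, and the median over all genes was -0.063 (log2). In 295 of the higher genes the signal was not above background in undeleted cells, and in 98 of the lower genes it was not above background in the knockout. The lowest correlation between arrays was 0.9961 within the undeleted group and 0.9953 within the knockout group, against 0.9707 to 0.9731 between them. The 3 knockout arrays did not overlap with the 3 undeleted arrays for 57.7% of all genes tested.

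**Figure D1:**
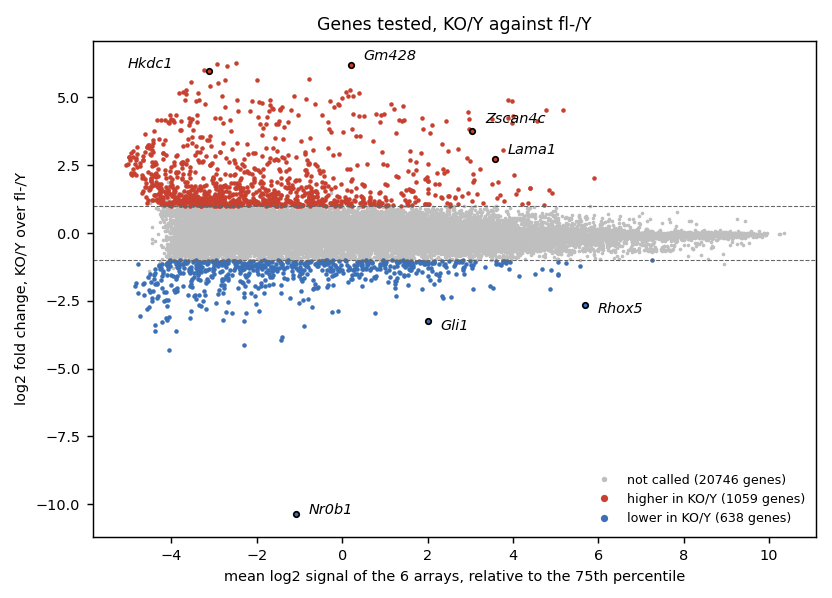
Log2 fold change of Nr0b1 KO/Y over Nr0b1 fl-/Y cells (y axis) against the mean log2 signal of the 6 arrays relative to the 75th percentile of the array (x axis), 1 point per gene, with 1059 genes called higher in red, 638 called lower in blue and the others in grey, and dashed lines at 2-fold. Nr0b1, at least 357-fold lower, lies far below every other gene, and the strongest rises sit mostly among dim genes.

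The state at 4 days differed from that of the established line. The knockout cells were isolated as colonies and expanded, so time since deletion and the choice of line cannot be told apart. With the same 3 undeleted arrays as reference, the 4-day cells had 392 genes higher (1.75% of genes tested) and 170 lower (0.757% of genes tested). The knockout set against the 4-day cells, which is the direct test of that difference, had 532 genes higher (2.37% of genes tested) and 235 lower (1.05% of genes tested). Among the 1059 genes higher in the knockout, 345 were also called at 4 days and 449 were higher in the knockout than at 4 days. Among the 638 lower genes, 109 were called at 4 days and 187 were lower in the knockout than at 4 days. Neither call was made for 409 of the higher and 365 of the lower genes.

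Signals of fibroblast and ES cell marker genes differed between the groups and stand beside several results below. Which cells gave these signals was not tested, and genotype cannot be told apart from slide directly. The summed linear signal of 20 fibroblast markers, such as Col1a1, Thy1 and Postn, ran from 430 to 456 times the 75th percentile in undeleted cells, from 525 to 554 at 4 days and from 601 to 652 in the knockout. All 20 were above background in every group and higher in the knockout at an adjusted p under 0.05, against 4609 of 22443 over all genes. With the slide as a block Col1a1 and Postn were at 0.36 and 0.39 (log2, adjusted p = 0.195 and 0.15). Thy1 was then at 0.65 (adjusted p = 0.00761). The median of the 20 markers without the block was 0.66 (log2), and Lum was called (1.12 in log2, 0.84 with the slide as a block). The sum of 8 ES cell markers ran from 704 to 736 in undeleted cells and from 537 to 655 in the knockout. Each of these 8 markers was above background in both groups. Fewer cells of a type and less RNA per cell cannot be told apart in these bulk samples.

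The Usp17-like genes and the Zscan4 and Tcstv families, known from the 2-cell embryo, had the highest medians of the gene lists described here. Of 8 genes of the Zscan4 and Tcstv families, 7 were higher in the knockout, against 4.72% of all genes, with a median of 4.10 (log2). Of the 7 Usp17-like genes, which encode deubiquitinating enzymes, 7 were higher, with a median of 4.68. Of the 33 Prame-like genes on the array 19 passed the background filter and 15 were higher, 7 of which were not above background in undeleted cells and so passed it through the other groups. Of the 7 Tdpoz genes, BTB-domain proteins of the early embryo, 6 passed it and 5 were higher, 3 of them likewise not above background in undeleted cells. In none of these families was a gene called lower. Where copies within a family are alike in sequence, their probes can take up each other's RNA, so single copies are uncertain. How alike the transcripts of each family are was not measured.

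Zscan4c, a zinc finger protein linked to telomere maintenance in ES cells, was at 1.20, 1.28 and 1.05 in undeleted cells. It was at 5.01, 4.97 and 4.82 in the knockout, 13.5-fold higher (log2 3.75, SE 0.09, adjusted p = 1.76e-08), and the groups were far apart. At 4 days it was already at 4.40, 4.37 and 4.56, and the knockout was above that by 0.49 (log2), which is under 2-fold (adjusted p = 0.00445). Zscan4a, Zscan4e and Zscan4f were 14.2-fold, 18.5-fold and 16.8-fold higher in the knockout.

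The Zscan4c and Zscan4f promoters are shown because both copies moved together and because they hold the nuclear receptor letters named above. Each run is the 250 bases before the start in the RefSeq annotation of GRCm38.p6, read on the strand of the gene. Zscan4c lies at chr7:11005495-11005744 on the plus strand and Zscan4f at chr7:11397665-11397914 on the plus strand. Capitals mark TGACCTT, which is AAGGTCA read on the other strand.
Zscan4c: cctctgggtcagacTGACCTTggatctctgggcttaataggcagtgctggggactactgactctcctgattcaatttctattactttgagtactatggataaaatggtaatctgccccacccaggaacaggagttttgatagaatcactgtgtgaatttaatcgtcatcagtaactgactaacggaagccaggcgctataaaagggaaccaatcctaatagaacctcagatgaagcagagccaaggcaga
Zscan4f: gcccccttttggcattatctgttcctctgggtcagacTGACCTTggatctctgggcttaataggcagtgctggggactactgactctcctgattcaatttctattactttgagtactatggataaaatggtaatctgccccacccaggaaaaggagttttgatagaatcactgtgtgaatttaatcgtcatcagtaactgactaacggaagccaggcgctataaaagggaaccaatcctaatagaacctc

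With a shift of 23 bases, the overlapping stretch of both promoters was the same at 226 of 227 bases. The match starts 236 bases before the start in Zscan4c and 213 bases before it in Zscan4f. AAGGTCA was searched on both strands in windows from 250 bases before to 50 bases after the start. It was present in 512 of 12029 tested genes with a promoter sequence (4.26%), in 39 of 580 higher genes (6.72%), in 18 of 345 lower genes (5.22%) and in 2 of 28 genes of the 2-cell families (7.14%). Those 2 are Zscan4c and Zscan4f, the near copies shown above, and no other of the 28 held AAGGTCA. The longer TCAAGGTCA, which contains it, was in 0.357% of the tested genes, in 6 higher genes, in 1 lower gene and in no 2-cell family gene. These shares are a description of letters, with no test.

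Tcstv1, a transcript of the 2-cell stage, was at -2.56, -2.40 and -2.23 in undeleted cells. It reached 1.15, 1.06 and 1.19 at 4 days and 2.67, 2.79 and 2.51 in the knockout, 33.2-fold above the undeleted cells (adjusted p = 8.07e-09). Unlike Zscan4c it was also called higher in the knockout than at 4 days, by 1.52 (log2, adjusted p = 2.96e-05). Its relative Tcstv3 stood at 0.37, 0.50 and 0.30 in the knockout and was 19.6-fold higher, with 1 of the 3 undeleted arrays above background. Usp17la rose from -1.48, -1.61 and -1.84 to 2.72, 2.68 and 2.68, which is 20.2-fold (adjusted p = 1.35e-08). Usp17lb was 33.6-fold higher, with 2 of the 3 undeleted arrays above background.

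The promoters of these 2 Usp17-like genes, again 250 bases before the start on the strand of the gene, are given for comparison with the Zscan4 copies. Usp17la lies at chr7:104856766-104857015 on the plus strand and Usp17lb at chr7:104842584-104842833 on the minus strand. The best ungapped alignment had 167 of 235 bases in common (71.1%), and AAGGTCA was in neither.
Usp17la: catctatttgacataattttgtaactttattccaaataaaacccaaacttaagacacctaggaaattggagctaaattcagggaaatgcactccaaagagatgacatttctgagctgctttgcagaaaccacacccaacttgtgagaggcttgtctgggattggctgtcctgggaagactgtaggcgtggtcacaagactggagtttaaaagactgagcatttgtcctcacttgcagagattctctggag
Usp17lb: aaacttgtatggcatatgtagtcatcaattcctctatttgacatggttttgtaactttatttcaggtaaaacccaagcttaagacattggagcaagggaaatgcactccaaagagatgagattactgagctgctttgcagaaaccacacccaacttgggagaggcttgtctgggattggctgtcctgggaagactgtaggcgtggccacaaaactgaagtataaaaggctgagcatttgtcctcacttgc

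Among the strongest rises were those of 3 neighbours on chromosome 4. Gm428 (probe at chr4:73333363-73333422, mm9) was at -3.06, -2.71 and -2.92 in undeleted cells, at 1.22, 1.12 and 1.32 at 4 days and at 3.39, 3.35 and 3.14 in the knockout. It was 73.2-fold higher in the knockout than in undeleted cells (adjusted p = 4.73e-09) and again higher than at 4 days (adjusted p = 8.73e-06), so the 3 groups formed 3 separate steps. Gm11757 and Gm11758, not well above background in undeleted cells, were at least 27.7-fold and at least 20.3-fold higher. Among the Prame-like genes, Pramel39 was at -2.52, -2.79 and -2.85 in undeleted cells and at 2.20, 2.22 and 2.06 in the knockout, 29.5-fold higher. Pramel7 and Pramel6 were not called at 4 days. Pramel7 was at -2.46, -2.65 and -2.24 at 4 days and at 0.11, 0.32 and 0.12 in the knockout (adjusted p = 4.33e-06 between those groups), and Pramel6 at 4 days was at -3.57, -3.45 and -3.10, within 0.30 of the undeleted mean, before -0.16, -0.45 and -0.36 in the knockout.

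Not every gene listed as a 2-cell gene was called. A short list of 2-cell genes was taken from those shown for these same samples, so its count is no independent evidence. Of its 6 genes 4 were higher, namely Zscan4c, Tcstv1, Gm4340 and Tdpoz2. Zfp352 was at 3.58, 3.46 and 3.48 in undeleted cells and at 3.38, 3.84 and 3.27 in the knockout, and these arrays overlapped (log2 -0.01, SE 0.17, adjusted p = 0.966). A second, much dimmer Zfp352 probe gave 4.07 (log2, adjusted p over all probes = 7.07e-05), so the probes of this gene disagree. Eif1a differed by -0.10 (log2, adjusted p = 0.231). In a wider list of 2-cell genes, 21 of the 30 on the array passed the background filter and 15 of them were higher, 6 of these not being above background in undeleted cells. Among the 15 were Arg2, arginase of the mitochondrion, by at least 6.47-fold, the homeobox gene Lmx1a by at least 9.76-fold and Zfp809, a zinc finger protein that silences retroviruses, by 3.23-fold.

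**Figure D2:**
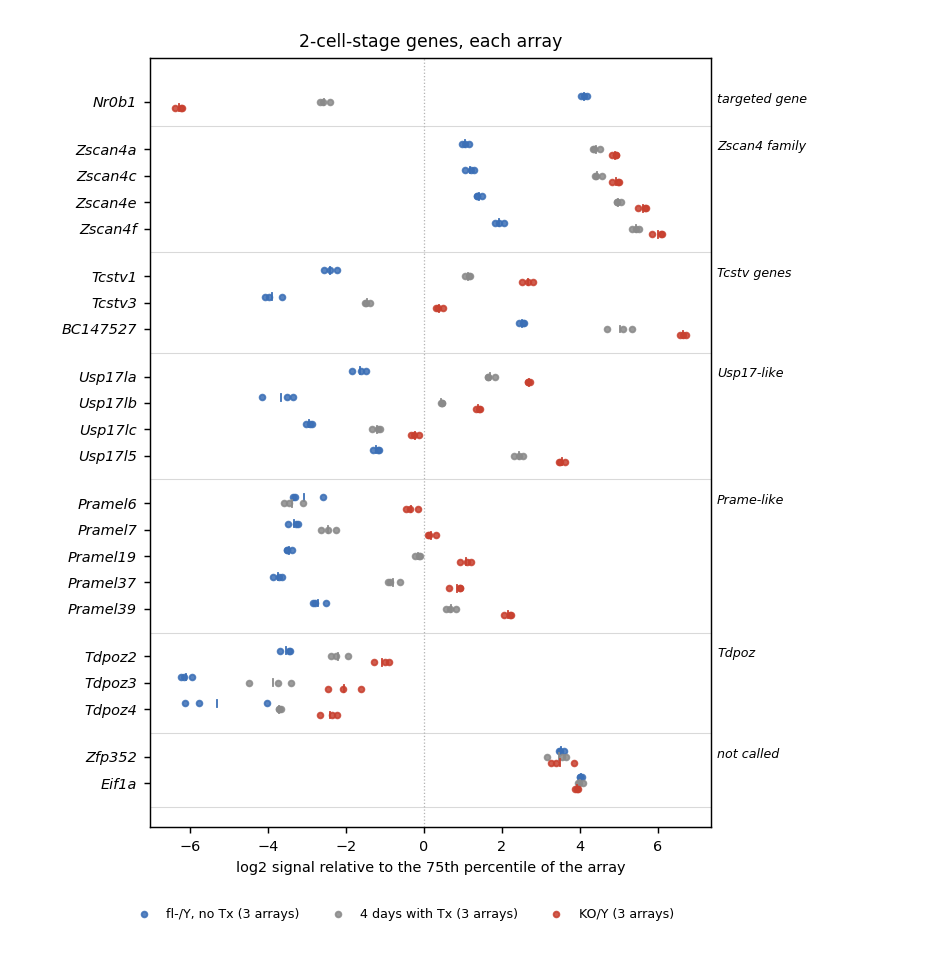
Log2 signal relative to the 75th percentile of the array for genes of the 2-cell embryo in each of the 9 arrays, 1 point per array coloured by group, with a short bar at each group's mean. In most family members the 4-day arrays lie between both other groups, Tcstv1 reaching 2.51 to 2.79 in the knockout, whereas Zfp352 and Eif1a were not called.

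Genes proposed to repress the 2-cell programme differed by less than 2-fold. Of the 36 genes of this list, which also holds the activator Zscan10, none was called by limma. At an adjusted p under 0.05 without the fold limit 21 were lower and 2 higher, with a median of -0.26 (log2), against 5921 of 22443 lower over all genes. Trim28, a corepressor of retroviral elements, was at 6.38, 6.52 and 6.42 in undeleted cells and at 6.36, 6.32 and 6.37 in the knockout (adjusted p = 0.274). Kdm1a, a histone demethylase, was lower by 0.27 (log2, adjusted p = 0.00491), Ehmt2, a histone methyltransferase, by 0.24 (adjusted p = 0.00844), and Rif1 differed by 0.04 (adjusted p = 0.703). Zscan10, a known activator of Zscan4c, was lower by 0.43 (log2, adjusted p = 0.00145), a change of under 2-fold.

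The second large group was that of primitive endoderm, and its timing was different. The 5 transcription factors Gata4, Gata6, Sox7, Sox17 and Hnf4a were each higher in the knockout than in undeleted cells and than at 4 days, and none was called at 4 days. The study picked them on these samples, so their count is no independent evidence. Gata4 was at -3.16, -3.36 and -3.28 in undeleted cells, at -2.57, -3.53 and -3.0 at 4 days and at -0.70, -1.16 and -0.71 in the knockout, 5.32-fold above undeleted cells (adjusted p = 5.62e-05). The 4-day arrays overlapped with the undeleted ones and the knockout arrays did not.

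Gata6 was 5.82-fold higher (adjusted p = 1.47e-05), Hnf4a, a hepatic and visceral endoderm factor, was 4.10-fold higher (adjusted p = 0.000219) and Sox17 was at least 5.41-fold higher (adjusted p = 8.59e-05). Sox7 was at -5.52, -3.69 and -5.00 in undeleted cells, where 1 of 3 arrays was above background, and at -1.93, -2.22 and -1.98 in the knockout. Its call was lost with the slide as a block, at a log2 difference of 2.27 (adjusted p = 0.0675), and with normexp, at 0.91. The summed linear signal of 8 primitive endoderm markers was 1.92 to 2.16 in undeleted cells, 2.69 to 3.12 at 4 days and 5.21 to 6.50 in the knockout. The 5 factors above are among the 8, but the largest terms of this sum on every array were Dab2 and Pdgfra. Dab2, which was not called, was at -0.13, -0.01 and 0.03 in undeleted cells and at 0.42, 0.50 and 0.68 at 4 days. Pdgfra was at -0.93, -0.72 and -0.77 in undeleted cells and at -0.29, -0.33 and -0.03 at 4 days.

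Of 20 other primitive endoderm regulators that were tested, 7 were higher and 1 was lower (40% called, against 7.56% over all genes), with a median of 0.70 (log2). Foxa2, a forkhead factor of the endoderm, was lower at 4 days and higher in the knockout. It was at -3.10, -2.92 and -3.08 in undeleted cells, at -4.43, -4.78 and -4.02 at 4 days and at -0.72, -1.15 and -0.52 in the knockout (adjusted p = 5.26e-05 against undeleted cells and 1.31e-05 against 4 days). The 4-day level, with 1 of 3 arrays above background, was below the undeleted one by 1.38 (log2, adjusted p = 0.00227). Its relative Foxa1 was called higher at 4 days as well as in the knockout, where it was 4.49-fold above undeleted cells, of which 1 of 3 arrays was above background. Cited1, a transcriptional coregulator, was at -0.56, -0.55 and -0.59 in undeleted cells and at 2.29, 2.42 and 2.59 in the knockout, 8.0-fold higher. Cer1, a secreted inhibitor of Nodal and BMP, was at least 2.28-fold higher. Sall1 was the lower gene, by 1.29 (log2). With normexp the differences of Foxa1 and Cer1 were 0.98 and 0.69.

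Genes that serve uptake and transport in visceral endoderm rose in part. Of 32 on the array 21 were tested, with 8 higher and 2 lower (47.6% called, against 7.56% over all genes). Cubn, which with Amn forms the endocytic receptor of the yolk sac, was at -3.17, -2.43 and -2.56 in undeleted cells and at 0.28, -0.34 and 0.57 in the knockout, 7.4-fold higher (adjusted p = 4.47e-05). Amn was 5.12-fold higher (adjusted p = 2.87e-05), so both subunits rose. Aqp8, a water channel, was at -2.66, -2.38 and -2.88 in undeleted cells, at -2.72, -2.48 and -2.69 at 4 days and at 1.79, 1.46 and 1.87 in the knockout, 20.3-fold higher. S100g, a calcium-binding protein, was at least 8.79-fold higher and Apom, an apolipoprotein, 6.20-fold higher. Apoe, the best known apolipoprotein of the list, went the other way and fell by 2.08 on the log2 scale, from 5.90, 5.91 and 5.89 to 3.66, 3.91 and 3.90.

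Basement membrane and parietal endoderm genes included 6 that were higher and none lower of 31 tested (19.4% called, against 7.56% over all genes). Lama1, a laminin chain made by early endoderm, was at 2.28, 2.18 and 2.21 in undeleted cells and at 5.27, 4.57 and 4.99 in the knockout, 6.6-fold higher (adjusted p = 5.65e-06). The partner chains changed less, Lamb1 by 0.92 (log2, adjusted p = 0.000437) and Lamc1 by 0.20 (adjusted p = 0.112). Col4a1 and Col4a2, which assemble into type IV collagen, were 4.84-fold and 3.12-fold higher, and Srgn, a proteoglycan core protein, was 25.0-fold higher, at -3.68, -3.83 and -3.71 in undeleted cells against 1.07, 0.59 and 1.06. Fibroblasts also make laminin and type IV collagen, and the fibroblast marker sum of 601 to 652 in the knockout against 430 to 456 in undeleted cells stands beside these values. Its part in them was not tested. Among 34 collagen genes tested, 3 were called higher (8.82% called, close to the 7.56% over all genes).

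**Figure D3:**
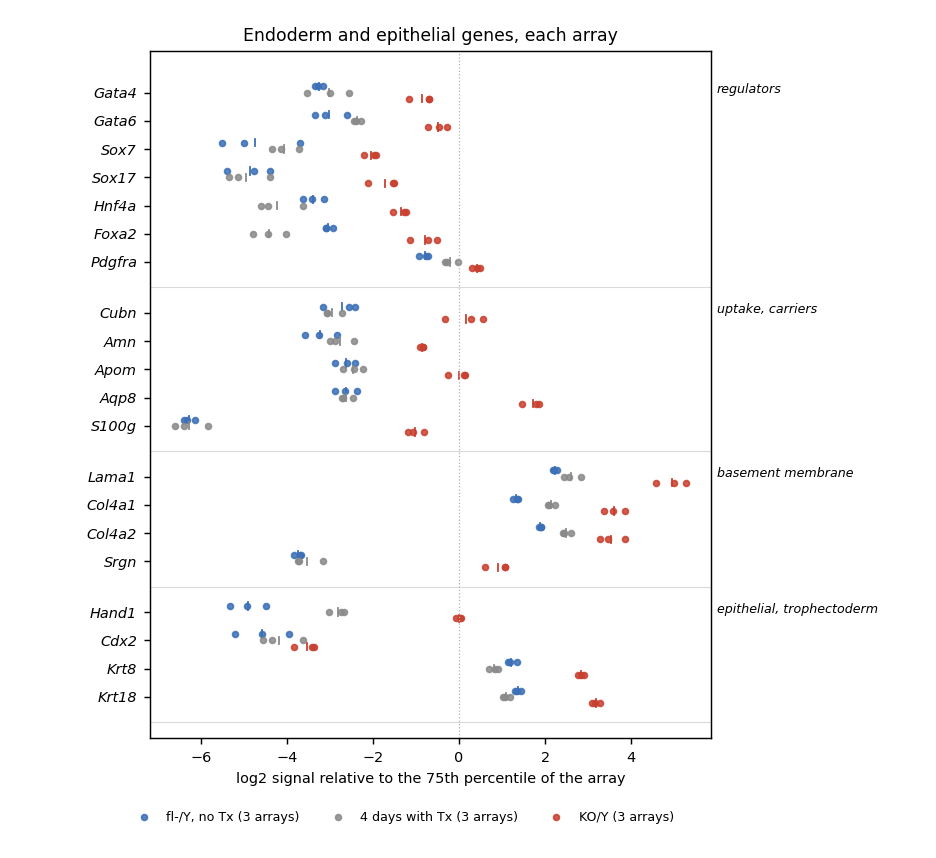
Log2 signal relative to the 75th percentile of the array for endoderm, basement membrane and epithelial genes in each of the 9 arrays, 1 point per array coloured by group, with a short bar at each group's mean. Most genes stay near the undeleted level at 4 days and are higher in the knockout, as for Gata4 with knockout arrays at -1.16 to -0.70, while Foxa2 dips at 4 days.

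Some of the strongest rises lay outside the 2-cell and endoderm lists and were not called at 4 days. Hkdc1, a hexokinase-domain protein, was at -6.11, -5.95 and -6.30 in undeleted cells, at -5.10, -5.79 and -5.77 at 4 days and at 0.02, -0.34 and -0.05 in the knockout, at least 16.4-fold higher than in undeleted cells (adjusted p = 1.08e-07) and different from 4 days (adjusted p = 2.04e-06). Mest, a paternally expressed imprinted gene, rose from -1.80, -1.59 and -1.72 to 2.15, 2.07 and 2.21, which is 14.3-fold, and stood at -1.59, -1.42 and -1.25 at 4 days (adjusted p = 1.5e-06 for the knockout against 4 days). Plagl1 and Dlk1, which are likewise expressed from the paternal allele, were 3.82-fold and 2.26-fold higher, though the mean of all Plagl1 probes gave 0.90 (log2), and Sfmbt2, of the same class, was 3.54-fold lower. In all, 4 of 22 paternally expressed imprinted genes were higher and 1 lower, and of 21 maternally expressed ones 1 was higher and 2 were lower. The shares called were 22.7% and 14.3%, against 7.56% over all genes. Fibroblasts express many imprinted genes, and the part of the fibroblast marker rise in these values was not tested.

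Trophectoderm and epithelial genes showed a mixed picture. Of 20 tested, 6 were higher and 2 lower (40% called, against 7.56% over all genes). Hand1, a basic helix-loop-helix factor of trophoblast and extraembryonic mesoderm, was at -4.92, -5.33 and -4.48 in undeleted cells, at -3.04, -2.75 and -2.68 at 4 days and at 0.05, -0.06 and 0.02 in the knockout, at least 17.9-fold above undeleted cells (adjusted p = 3.38e-07). The keratin partners Krt8 and Krt18 were 3.06-fold and 3.49-fold higher. Both were slightly below the undeleted level at 4 days, Krt8 at 0.91, 0.84 and 0.68 against 1.13, 1.35 and 1.17. Tfap2a rose 4.98-fold while its relative Tfap2c, which acts in trophoblast and germ cells, was 2.61-fold lower. Cdx2, the leading trophectoderm factor, was above background on 1 of 3 undeleted arrays and was called higher by 1.04 (log2, adjusted p = 0.0315), but the log2 difference was 0.47 with the slide as a block (adjusted p = 0.632) and 0.23 with normexp (adjusted p = 0.0939). Its adjusted p also rose to 0.0979 without undeleted array 1, 0.0728 without undeleted array 3, 0.0881 without knockout array 2 and 0.0873 without knockout array 3. Of 6 trophectoderm markers, 3 were above background on no undeleted array and 1 on no knockout array.

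Most pluripotency factors differed by less than 2-fold. Of 35 core and naive pluripotency factors none was higher and 4 were lower in the knockout (11.4% called, against 7.56% over all genes), with a median of -0.40 (log2). When the fold was not limited, 22 were lower and 6 higher at an adjusted p under 0.05, against 5921 and 4609 of 22443 genes. Pou5f1, which encodes Oct3/4, was at 3.39, 3.46 and 3.45 in undeleted cells and at 2.39, 2.64 and 3.32 in the knockout (log2 -0.65, SE 0.24, adjusted p = 0.0563), with a wide spread among the knockout arrays, and with the slide as a block the difference was -1.0 (adjusted p = 0.144). Sox2 was lower by 0.52 (adjusted p = 0.000625), and Nanog, at -0.62, -0.85 and -0.60 against -1.14, -0.56 and -0.68, had overlapping arrays (log2 -0.10, adjusted p = 0.716). Esrrb and Nr5a2, nuclear receptors of the kind that Nr0b1 binds, were lower by 0.82 (adjusted p = 8.47e-06) and 0.88 (adjusted p = 1.29e-05). As the mean of its probes Nr5a2 was past 2-fold, at -1.02 (log2, adjusted p = 1.97e-05). Klf4 and Tbx3 moved upward, by 0.66 (adjusted p = 4.55e-05) and 0.83 (adjusted p = 3.16e-05).

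The 4 factors called lower were Gbx2, Mycn, Tfcp2l1 and Gdf3. Gbx2, a homeobox gene downstream of Stat3, was at 0.34, 0.37 and 0.20 in undeleted cells, at -0.30, -0.43 and -0.30 at 4 days and at -2.08, -2.34 and -2.05 in the knockout, 5.50-fold lower (adjusted p = 2.83e-07). Mycn, a proto-oncogene of the Myc family, went from 3.71, 3.78 and 3.70 to 1.34, 1.25 and 1.49, 5.16-fold lower (adjusted p = 1.32e-07). Both were lower in the knockout than at 4 days, when Mycn was at 2.98, 2.87 and 3.03. Tfcp2l1, another Stat3 target, was near its knockout level at 4 days, at 2.55, 2.54 and 2.60 against 2.52, 2.50 and 2.40. Gdf3, a TGF-beta family ligand, lay at the limit at -1.02 (log2), with -0.99 without undeleted array 2, -0.93 after quantile normalization and -0.74 as the mean of its probes. Among genes linked to rapid ES cell proliferation, Mybl2 was lower by 0.72 (log2, adjusted p = 3.1e-05), Eras by 0.36 (adjusted p = 0.00304) and Klf5 by 0.34 (adjusted p = 0.0213), all under 2-fold, and Sall4 differed by -0.14 (adjusted p = 0.217).

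Targets of several signalling pathways were among the lower genes. Gli1, the transcription factor whose level reports Hedgehog activity, was at 3.58, 3.69 and 3.63 in undeleted cells, at 2.11, 2.08 and 2.19 at 4 days and at 0.42, 0.38 and 0.32 in the knockout, 9.59-fold lower (adjusted p = 6.19e-09). Ptch1, the Hedgehog receptor and itself a target, was 5.20-fold lower (adjusted p = 1.86e-05), at 0.24, -0.14 and -0.20 against -2.42, -2.27 and -2.56. The ligands Ihh and Dhh and the coreceptor Boc were called higher, so 3 of 13 Hedgehog genes were higher and 2 lower (38.5% called, against 7.56% over all genes). These higher calls were the less stable ones. Ihh was at 1.23 with the slide as a block (log2, adjusted p = 0.13), at 0.66 with normexp and at 0.96 without knockout array 3. Dhh was at 0.61 with normexp. Boc was under 2-fold with the slide as a block (0.94), with normexp (0.77), after quantile normalization (0.99) and without undeleted array 1 (0.93), undeleted array 2 (0.997), knockout array 1 (0.99) or knockout array 3 (0.95), and the authors' table gave 0.999.

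Sp5, a target of Wnt signalling, was 10.8-fold lower, at 0.79, 0.88 and 0.79 in undeleted cells and -2.42, -2.47 and -2.94 in the knockout (adjusted p = 4.48e-07), and it had fallen to -1.86, -2.05 and -2.17 by 4 days. Lef1, the nuclear effector and a target of Wnt, was 2.56-fold lower, while Dkk1, a secreted Wnt inhibitor, was at least 1.80-fold higher (0.41 in log2 with normexp). In all, 4 of 22 Wnt targets and inhibitors were higher and 2 lower (27.3% called, against 7.56% over all genes). The count of higher ones was 2 without undeleted array 3, without knockout array 2 or without knockout array 3, and 0 with normexp. Lefty1, an inhibitor and target of Nodal, was 5.28-fold lower (adjusted p = 4.28e-08), from 3.55, 3.60 and 3.56 to 1.09, 1.18 and 1.24. Of 18 Nodal pathway genes 3 were lower and 1, Cer1, was higher (22.2% called, against 7.56% over all genes). Socs2, a feedback inhibitor of cytokine signalling, was 5.02-fold lower, among 3 lower and 1 higher of 21 genes of the LIF receptor and Stat3 list.

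Of 15 Notch receptors, ligands and effectors 4 were lower and 1 was higher (33.3% called, against 7.56% over all genes). Hes3, a transcriptional repressor that acts in neural progenitors, was at least 3.49-fold lower, Hey1 was 2.84-fold lower and Hes5 2.22-fold lower. Egr1, an immediate target of ERK, was above its undeleted level at 4 days by 0.54 (log2, adjusted p = 0.000794), which is under 2-fold, and 2.44-fold below it in the knockout, at 2.74, 2.78 and 2.62 in undeleted cells, 3.24, 3.22 and 3.32 at 4 days and 1.48, 1.38 and 1.42 in the knockout (adjusted p = 1.9e-06 against undeleted cells). Of 21 genes that read out FGF and ERK signalling 2 were lower and none was higher (9.52% called, close to the 7.56% over all genes). Bmp4 was 2.53-fold lower and Bmp2 2.51-fold higher, the only called members of 18 BMP ligands and Id targets (11.1% called). Among neuroectoderm genes Pax6 was at least 2.38-fold lower, the single call of 14 tested (7.14% called). With normexp the differences of Hes3, Hey1, Hes5, Pax6 and Bmp2 were -0.95, -0.94, -0.62, -0.66 and 0.99 (log2).

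**Figure D4:**
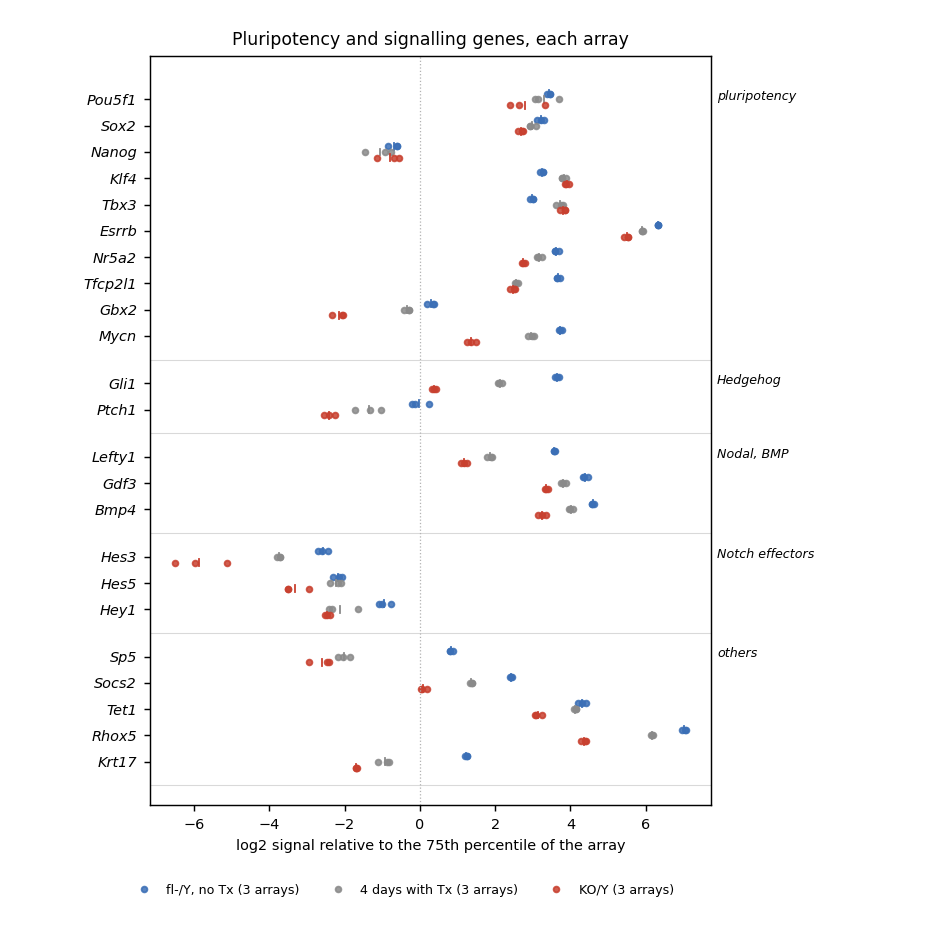
Log2 signal relative to the 75th percentile of the array for pluripotency factors and signalling targets in each of the 9 arrays, 1 point per array coloured by group, with a short bar at each group's mean. Gli1, Gbx2 and Mycn fall at 4 days and further in the knockout, Gli1 to between 0.32 and 0.42, while Nanog has overlapping arrays.

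Of 26 germline and meiosis genes tested, 8 were higher and 2 lower (38.5% called, against 7.56% over all genes). Smc1b, the meiotic cohesin subunit, was at -1.58, -1.75 and -1.76 in undeleted cells, at -1.65, -1.68 and -0.81 at 4 days and at 0.53, 0.65 and 0.66 in the knockout, 4.98-fold higher (adjusted p = 4.5e-05). Dazl, an RNA-binding protein of germ cells, was 4.06-fold higher, with 1 of 3 undeleted arrays above background, and Stra8, needed for entry into meiosis, was 3.03-fold higher. Sycp3, a synaptonemal complex protein, and Tex14, of the germ cell bridge, were 2.58-fold and 4.06-fold lower. Among X-linked cancer-testis and Xlr genes, a list matched by name that also took some autosomal genes, 21 of the 52 on the array passed the background filter and 8 were higher, 5 of which were not above background in undeleted cells. Ctag2l2 was at least 7.71-fold and Nxf7, an RNA export factor, at least 4.84-fold higher, while the calls of Xlr4a and Xlr4b were lost with the slide as a block (adjusted p = 0.2 and 0.0879) and with normexp (0.60 and 0.75 in log2), as was that of Dazl with normexp (0.77).

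Rhox5, an X-linked homeobox gene also known as Pem, was at 7.03, 7.06 and 6.95 in undeleted cells and at 4.28, 4.42 and 4.38 in the knockout, 6.31-fold lower (adjusted p = 1.78e-08). It was still at 6.18, 6.13 and 6.16 after 4 days. Of its family, 4 of 18 genes were higher, including Rhox2e and Rhox2h (0.81 and 0.87 in log2 with normexp), so members moved in opposite directions. Tet1, which oxidises methylated cytosine, was 2.26-fold lower, at 4.41, 4.21 and 4.30 against 3.08, 3.06 and 3.25 (adjusted p = 8.2e-06), and was the single call among 21 genes of DNA methylation. It had changed by -0.18 (log2) at 4 days (adjusted p = 0.127) and was lower in the knockout than at 4 days (adjusted p = 6.26e-05).

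Cell cycle genes mostly differed by less than 2-fold. Of 38 G1/S and replication genes 26 were lower and 3 higher at an adjusted p under 0.05 with a median of -0.39 (log2), yet a single gene was lower by over 2-fold, Ccne1, the cyclin of S phase entry, at 5.54, 5.61 and 5.62 against 4.46, 4.52 and 4.62, a difference of -1.06 that was -0.95 after quantile normalization. Of 35 G2/M and spindle genes 26 were lower and 1 higher at that adjusted p, with a median of -0.40, and none was called in limma. Over all genes 5921 of 22443 were lower and 4609 higher at the same limit. Of 33 Cdk inhibitors and p53 targets 2 were called higher and 1 lower (9.09% called, close to the 7.56% over all genes), with 19 higher and 5 lower at that adjusted p and a median of 0.33 (log2). Pmaip1, a proapoptotic BH3 protein also called Noxa, was 2.27-fold higher and was the single call among 31 apoptosis regulators. Cdkn1c, a Cdk inhibitor, was 2.07-fold lower (-0.96 in log2 with normexp). Among 34 telomere and recombination genes the calls were Terf2, which protects telomere ends, 2.76-fold lower (adjusted p = 1.21e-06) but at -0.99 (log2) as the mean of its probes, and Smc6, of the Smc5/6 complex, 2.26-fold higher (adjusted p = 3.9e-06). Of these 34 genes 21 were lower and 2 higher at an adjusted p under 0.05, with a median of -0.49 (log2).

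Enzymes of glucose use moved in both directions. Of 34 genes tested 3 were higher and 3 lower (17.6% called, against 7.56% over all genes). At an adjusted p under 0.05 without the fold limit 20 were lower and 5 higher, against 5921 and 4609 of 22443 genes. Fbp1 and Fbp2, the bisphosphatases of gluconeogenesis, were 7.46-fold and 14.6-fold higher, Fbp2 with 2 of 3 undeleted arrays above background. Slc2a1, the main glucose transporter of ES cells, was at 5.33, 5.34 and 5.34 in undeleted cells and at 4.22, 3.82 and 3.97 in the knockout, 2.51-fold lower (adjusted p = 5.28e-05). Ldhb, a lactate dehydrogenase subunit, and Aldoc, an aldolase, were 2.90-fold and 2.42-fold lower. Hk2, a hexokinase, was lower by 0.77 (log2), under 2-fold, in contrast to the rise of Hkdc1 described above.

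Hox genes were mostly higher by less than 2-fold. Of 31 tested, 28 were higher and none lower at an adjusted p under 0.05, against 4609 higher of 22443 over all genes. Their median was 0.69 (log2). In all 6 were called (19.4%, against 7.56% over all genes), among them Hoxc13 at 3.06-fold and Hoxd13 at 3.31-fold, the latter with 1 of 3 undeleted arrays above background. With the slide as a block the calls of Hoxb13, Hoxc11, Hoxd11 and Hoxd9 were lost (adjusted p from 0.123 to 0.573), and with normexp all 6 were under 2-fold, from 0.32 to 0.73 (log2). Hoxb13 also lost its call without undeleted array 1 (adjusted p = 0.0527) or 3 (0.103) and without knockout array 1 (0.0921) or 2 (0.109), and Hoxd9 fell under 2-fold without knockout array 1 (0.90 in log2). The median of the 20 fibroblast markers was 0.66, close to that of the Hox genes, and fibroblasts express many Hox genes. The part of the fibroblast signal was not tested. Of 17 mesoderm and epithelial-mesenchymal transition genes 4 were higher, led by Hand1 (23.5% called, against 7.56% over all genes). The other calls, Gsc, Snai1 and T, reached at most 1.20 (log2) and were 0.78, 0.94 and 0.35 with normexp. Snai1 was at 0.94 with the slide as a block and 0.98 without undeleted array 1. T was at 0.97 after quantile normalization and at 0.98, 0.98 and 0.97 without undeleted array 2, knockout array 2 or knockout array 3.

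Between none and 2 genes were called in each of the stress, interferon, lipid and steroid lists, against 7.56% over all genes. Atf3, a stress-induced transcription factor, was at least 6.55-fold higher and was the single call among 23 integrated stress response genes, and Hspa1a, an inducible heat shock protein, was 2.71-fold higher (0.89 in log2 with normexp), the single call of 19. Of 30 interferon and antigen presentation genes 2 were lower, Oas1a by 3.02-fold. At an adjusted p under 0.05 without the fold limit 8 of them were higher and 4 lower, against 4609 and 5921 of 22443 genes. The median of this list was 0.504 (log2) and ran from 0.009 to 0.705 over the alternatives. Of 30 cholesterol and fatty acid synthesis genes 1 was lower and of 11 steroidogenic genes none was called in limma, although Nr0b1 regulates steroid synthesis in the adrenal gland. Of 36 nuclear receptors 2 were higher, Hnf4a and Vdr, and the call of Vdr was lost with the slide as a block (0.52, adjusted p = 0.103) and with normexp (0.59). Over chromosomes 1 to 19 and X the medians ran from -0.126 (chromosome 8) to -0.03 (chromosome 6), a spread of 0.097.

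**Figure D5:**
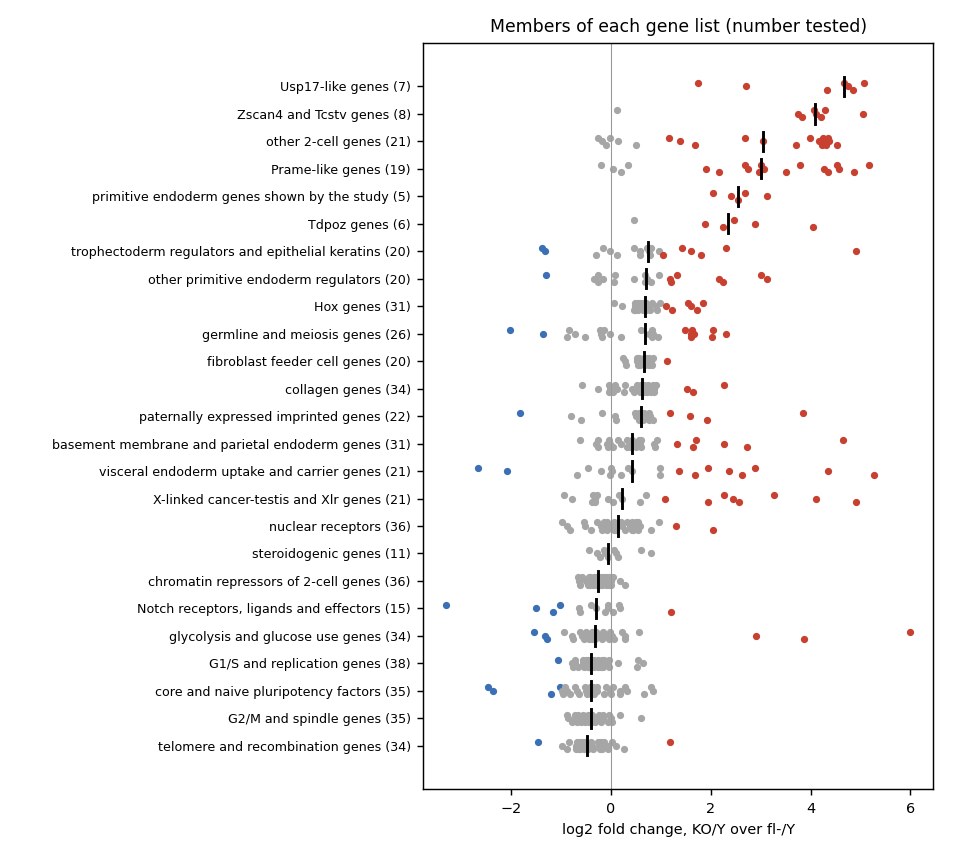
Log2 fold change of Nr0b1 KO/Y over Nr0b1 fl-/Y cells (x axis) for each tested member of selected gene lists, the number tested in parentheses, with called genes in red (higher) or blue (lower), others in grey and a black bar at the median of the list. The Usp17-like and the Zscan4 and Tcstv genes lie farthest to the right with medians of 4.68 and 4.10, and the cell cycle lists lie slightly left of 0 with medians of -0.39 and -0.40.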

How the data were processed

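RNA of the 3 groups was hybridised to SurePrint G3 mouse 8 × 60K arrays. The deposited scanner files hold intensity values, the processed signal (gProcessedSignal) that the authors obtained with Agilent Feature Extraction 10.7.3.1, per the labels, already corrected for background by that software. A table deposited by the authors holds their normalized signal for the same arrays; its normalization is not given in the sources used here, and it served as an alternative. The study analysed its arrays with the NIA Array Analysis software at over 2-fold and a false discovery rate.

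Control and outlier spots were left out of 59305 spots per array. Log2 intensity was centred on the 75th percentile within each array and averaged over the spots of a probe, giving 55681 probes. A probe was kept when well above background on all 3 arrays of at least 1 group, and a gene was read by its brightest probe. Of all probes 27235 were named through RefSeq, and 6265 of the 22443 genes tested have no symbol. The arrays had 28820 to 32516 detected probes, 117 to 178 outlier spots and 0 saturated ones. The number of arrays limits the precision. All 9 arrays entered 1 fit with limma 3.58.1 (lmFit and eBayes, R 4.3.3) and Benjamini-Hochberg adjustment over all genes. The fit was tested on simulated data.

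Where no array of a group detected a gene, "at least N-fold" sets the mean of the brighter group against the higher of the dim probe's signal and the lowest detected signal, averaged over the arrays of the dimmer group. The slide was tested as a batch.

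Genes were named as Nr0b1, the genes the study shows for its arrays, the 15 largest changes each way, up to 6 called members of each of 62 lists and the first 4 members of each list. Any other gene named was picked with its values known. The comparison, the lists and the tests were chosen with earlier results of these data known, and lists are described by counts and medians. Alternatives covered background, scaling, filters, thresholds, probes, slide and single arrays. Sequences are from RefSeq (GRCm38.p6) and array positions are mm9. Arrays of a group are listed by position on the slides, since the labels do not tie them to replicate numbers.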

Additional observations from a re-analysis of the deposited data

How the results depend on the processing

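Nr0b1 was lower, at -10.41 to -6.61 (log2), under each of the 19 alternatives run for its fold change, and no called gene among those named by the rule changed direction under the alternatives tried. Set against 1059 genes higher and 638 lower, and 532 higher and 235 lower for the knockout over 4 days, the normexp background gave 415 and 267, and 195 and 61. It left 125 of the 201 calls among named genes, and 91 higher and 36 lower calls over all lists in place of 160 and 55. Keeping only probes above background on all 9 arrays gave 586 higher genes, 128 named calls, 95 higher calls over the lists, and 229 and 149 genes against 4 days. Without a limit on the fold there were 4609 and 5921 genes, 477 and 353 calls over the lists, and 2710 and 3171 against 4 days, and 43.8% of calls were higher in place of 62.4%. Testing against 2-fold (treat) gave 473 and 192 genes, 101 and 29 calls over the lists, and 144 and 43 against 4 days, with 71.1% of calls higher. The slide as a block gave 972 and 627 genes, of which 798 and 480 were shared, and ended 27 named calls. The cause was not tested. Leaving out single arrays gave 1032 to 1072 higher and 630 to 674 lower genes. The authors' table gave 1077 and 659 genes past 2-fold, 1053 and 638 of them shared, with no test. No paired analysis was possible because the labels tie no array to a replicate number. Genes near background have only a bound on their fold.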

Other observations

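Some called genes lay beside each other on the chromosomes of the array's annotation (mm9). Outside chromosome 18, which was not used here, runs of at least 4 called genes with starts less than 300 kb apart were counted. The 28 runs of higher genes held 165 of the 1059 called higher, and 7 runs of lower genes held 29 of the 638 called lower. Both totals also count genes on chromosomes 18 and Y and genes without a position, which could enter no run. The limits of 4 genes and 300 kb were set after the values were seen, names without a symbol were counted as genes, several probes can read the same transcript, and no test was made. Many runs are the gene families described in the report. The Usp17-like run on chromosome 7 had 4 of 5 tested names higher, the Zscan4 run on the same chromosome 6 of 10 and the Tdpoz run on chromosome 3 had 10 of 15. Other runs held at least some genes outside the lists. On chromosome 11 between 94616520 and 94722131, 7 of 8 tested names were higher, from 2.81 to 4.61 (log2). They include Tmem92, which is on the wider list of 2-cell genes, and its neighbours Gm11545 and A430060F13Rik. On the X chromosome between 8539269 and 8657634, the ferritin-like genes Fthl17d, Fthl17e and Fthl17f were 27.3-fold, 26.5-fold and 20.6-fold higher. Fthl17d was at -2.60, -2.54 and -2.28 in undeleted cells, at -0.09, -0.15 and -0.27 at 4 days and at 2.12, 2.46 and 2.32 in the knockout, so the 3 groups did not overlap. On chromosome 8 a run of α-defensin genes had 4 of 14 tested names higher, Defa38 and Defa29 among them.

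Some genes outside every list also rose strongly. Cidea, a lipid droplet protein, was 13.3-fold higher, at -1.64, -1.98 and -1.91 in undeleted cells and at 1.65, 2.05 and 1.96 in the knockout (adjusted p = 1.23e-07). Hdc, which makes histamine, was at least 10.6-fold higher (adjusted p = 1.54e-05). Obox6, an oocyte homeobox gene, was at least 7.16-fold higher than in undeleted cells and was not called at 4 days. Malat1, a nuclear long noncoding RNA, was 2.10-fold lower in the knockout (adjusted p = 1.04e-05) and at -0.98 (log2) with normexp, with a log2 difference of -0.07 at 4 days (adjusted p = 0.527).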
